A study of Mus musculus with 3 samples.

Results

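The genes described here are 10 members of the Notch pathway, the receptors Notch1, Notch2, Notch3 and Notch4, the ligands Jag1, Jag2 and Dll4, and the target genes Hey1, Hey2 and Heyl. They are 10 of the 36167 features in the count tables, were chosen by name, and were read by pool and by class of nuclei. The tissue was the aortic valve structure of mouse pups on postnatal day 1, flash frozen and pooled, with 22 to 24 aortic roots in each of 3 pools. All 3 pools form 1 group, so every comparison is between classes of nuclei within pools and none is between treatments or genotypes. The strain label, B6.Cg-Scx<tm1.1(EGFP)Skom, names an EGFP allele of Scx, and whether the pups carried 1 or 2 copies is not stated. RNA was read from nuclei, in the gene expression part of a combined assay of RNA and open chromatin, and the chromatin part is not analysed here.

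Notch receptors are membrane proteins that are cut when a ligand of the Jagged or Delta-like family on a neighbouring cell binds them. The freed intracellular piece enters the nucleus, joins the DNA-binding protein Rbpj and switches on target genes, among them Hes genes and the Hey genes, which encode repressors of transcription. In the cardiovascular system Notch1, Notch4 and Dll4 are known from endothelium, Notch3 from vascular smooth muscle and pericytes, and Jag1 from both layers of the arterial wall. Notch1 is a gene in which loss of function is linked to bicuspid and calcified aortic valves, and Jag1 and Notch2 are the genes of Alagille syndrome.

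Nuclei with at least 1000 unique molecular identifiers (UMIs, each a counted RNA molecule) and at most 5% mitochondrial UMIs were kept, 7071, 3253 and 3749 in pools 1, 2 and 3 of 10580, 5949 and 4611 deposited. Above the UMI minimum, 21.9%, 31.6% and 8.81% of nuclei exceeded the mitochondrial limit. Removal of 598, 155 and 138 likely doublets left 13182 nuclei, with a median of 4283, 4761 and 3336 UMIs. Pools 1 and 2 shared 99 barcodes, pools 1 and 3 shared 59, and pools 2 and 3 shared 44. The nuclei formed 27 clusters, of which 24 took names from marker genes and made 12 classes, and 10 classes, those with 20 or more nuclei in each pool, entered the test. The classes were rebuilt from the RNA and are therefore called X-like, and the members were kept out of the clustering and of the markers. Valve interstitial-like nuclei, 1501 in 2 clusters that both carried Matn4, Col9a1, Sox9 and Postn, were found beside 2872 smooth muscle-like, 2728 endothelial-like (endocardial included), 2398 cardiomyocyte-like, 1072 fibroblast-like, 370 mesothelial-like, 261 macrophage-like, 128 pericyte-like, 118 lymphatic endothelial-like and 73 erythroid-like nuclei. The last 3 of these rest on few nuclei. Smooth muscle-like nuclei were 26.3%, 12.7% and 21.4% of the analysed nuclei in pools 1, 2 and 3.

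The Hey2 promoter is shown because it alone, among the 8 members with an entry in the RefSeq promoter table (build GRCm38.p6), held the Rbpj motif GTGGGAA or its reverse complement TTCCCAC. The entries cover 300 bases around the start of the gene, and 6.38% of all 32851 promoters in the table held the motif on either strand. In Hey2 the motif lay on the reverse strand with its first base 207 bases before the start, and on the gene's strand with its first base 4 bases before it. The stretch printed lies at chr10:30842774-30843033, on the minus strand, and runs from 250 bases before the start to 10 bases after it, with the motifs in capitals. A match of letters is not a measured binding site, and its absence from the other windows says only that these letters are not in them. Hey1 and Heyl are not among the 8.
Hey2 promoter: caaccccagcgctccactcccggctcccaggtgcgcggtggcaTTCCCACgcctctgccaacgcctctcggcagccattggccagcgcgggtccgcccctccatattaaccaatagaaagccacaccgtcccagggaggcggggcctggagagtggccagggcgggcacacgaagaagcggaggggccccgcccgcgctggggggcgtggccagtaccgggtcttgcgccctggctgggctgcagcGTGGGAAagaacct

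Levels are CPM, the gene's UMIs divided by all UMIs of that class and pool and scaled to a common total, with mean ± SD over the 3 pools. They are not corrected for gene length and are therefore compared between classes and not between genes. Differences between classes are log2 values from edgeR's quasi-likelihood test on counts summed by pool and class, with p-values adjusted over all 13888 genes tested. A call needs an adjusted p under 0.05 and at least a 2-fold difference. The first form of the test sets a class against the mean of the log levels of the other 9 classes, in which each class weighs the same however few UMIs it holds. A second form, in which the class is set against the sum of all other named nuclei, is given beside it because Notch4, Jag2, Dll4 and Hey1 had 0 UMIs in the erythroid-like class, which lowers the mean of the others. Named nuclei here are those of the 10 classes tested, so 68 melanocyte-like and 57 adipocyte-like nuclei are not in the sum. The second form was fitted for each class on its own set of 15006 to 16635 genes. Nothing in the labels says that a pool shares animals with another. The level of each pool is fitted as a block, so the p-values rest on how the class differences vary over these 3 pools. They do not measure the spread between animals.

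**Figure D1:**
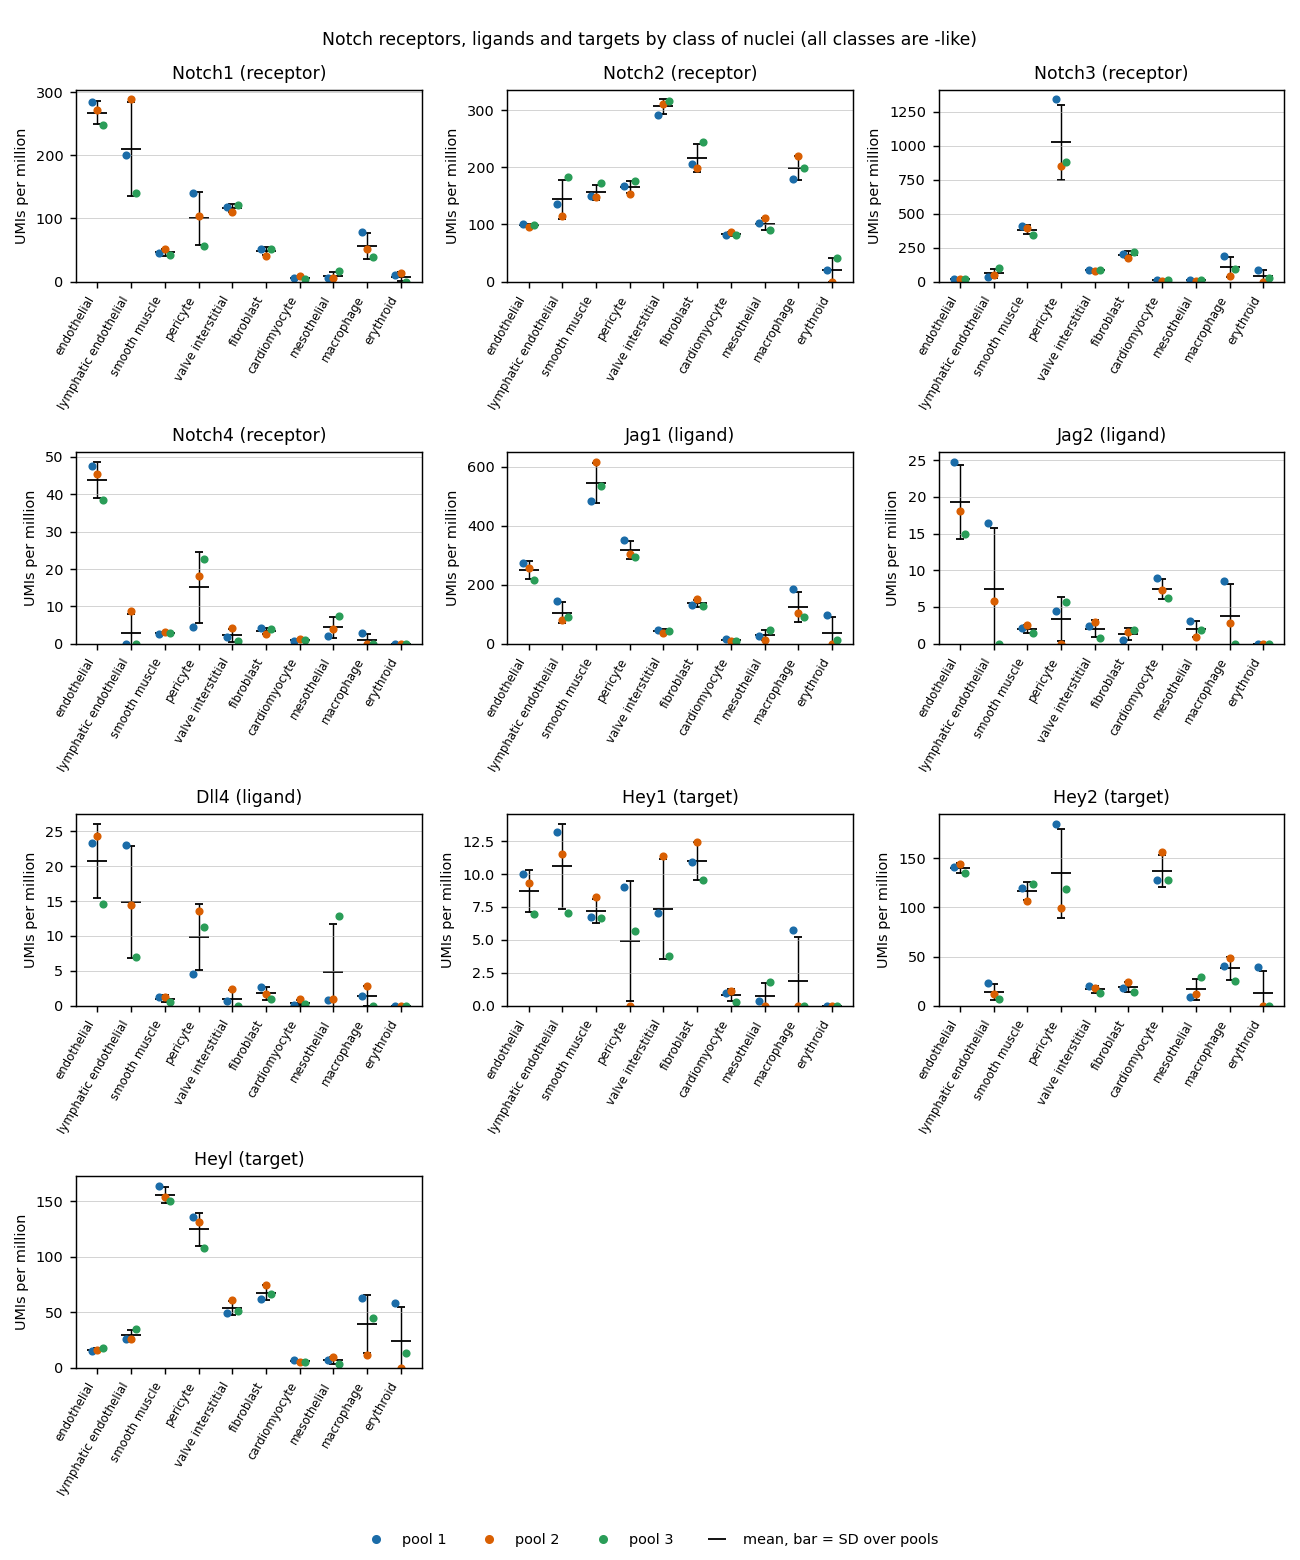
Level of each member, in CPM on a linear axis from 0, in 10 classes of nuclei. Points are pools 1, 2 and 3, the dash and bar are their mean and SD. Notch1, Notch4, Jag2 and Dll4 have their highest mean in endothelial-like nuclei, Notch3 in pericyte-like nuclei (1023), Jag1 (546) and Heyl (156) in smooth muscle-like nuclei, and Notch2 (306) in valve interstitial-like nuclei.

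Among the receptors, Notch1 stood highest in the lining cells, with 284, 272 and 247 CPM in endothelial-like nuclei of pools 1, 2 and 3. Lymphatic endothelial-like nuclei followed with 201, 289 and 140, and their range overlapped the endothelial-like one. Valve interstitial-like nuclei held 117, 110 and 122, below every endothelial-like and lymphatic endothelial-like value, and pericyte-like nuclei held 140, 104 and 56.7. Fibroblast-like (48.2 ± 6.54, SD, n = 3) and smooth muscle-like nuclei (46.2 ± 5.01) were lower, and cardiomyocyte-like nuclei held 6.08 ± 1.98. In edgeR's quasi-likelihood test, Notch1 was higher in endothelial-like nuclei, with a log2 difference of 2.64 (SE 0.10, adjusted p = 1.80e-26), and in lymphatic endothelial-like nuclei by 2.27 (SE 0.20, adjusted p = 3.29e-13). Against the sum of all other named nuclei these differences were 2.60 and 1.01, and both were called. Endothelial-like and lymphatic endothelial-like nuclei were not separated by the same test (0.34, interval 0.01 to 0.66, adjusted p = 0.192), although without pool 2, which holds the highest lymphatic value, the difference was 0.67 with an adjusted p of 0.0341.

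In valve interstitial-like nuclei Notch1 was called higher than the mean of the other classes, by 1.30 (SE 0.14), but the difference from all other named nuclei was 0.24 (adjusted p = 0.0798 by edgeR) and was not called. In pericyte-like nuclei the sign turned, from 1.08 to -0.07.

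Notch2, the receptor with the most even spread, was highest in the valve interstitial-like class, at 292, 311 and 316 CPM. Fibroblast-like nuclei followed with 206, 199 and 244, and macrophage-like nuclei with 179, 220.4 and 199. The valve interstitial-like values lay above every value of the other classes. The difference from the fibroblast-like class was 0.54 (SE 0.11, adjusted p = 0.000122 by edgeR), and that from the mean of the other classes was 1.26 (SE 0.09, adjusted p = 8.11e-16), or 1.35 against the sum of all other named nuclei. Endothelial-like nuclei, the class with the most Notch1, held 95.2 to 101 CPM of Notch2, and cardiomyocyte-like nuclei held 81.6, 87.6 and 81.5. The erythroid-like class, with 5 Notch2 UMIs in all, had a lower mean than these.

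Notch3, the receptor of mural cells, reached 1341, 850 and 879 CPM in pericyte-like nuclei. Smooth muscle-like nuclei held 411, 393 and 346, and fibroblast-like nuclei 206, 173 and 218. These 3 classes did not overlap one another. The 7 smooth muscle markers summed to between 2983 and 3278 CPM in pericyte-like nuclei and to between 2822 and 3349 in smooth muscle-like nuclei. In cardiomyocyte-like nuclei, which held little Notch3, the same list summed to between 3042 and 3309. The 7 pericyte markers summed to between 2580 and 4390 in pericyte-like nuclei, with none of either list at 0. The part of both lists in the levels of the pericyte-like class was not tested. Notch3 was higher in pericyte-like nuclei by 4.07 (SE 0.15, adjusted p = 1.74e-26 by edgeR), in smooth muscle-like nuclei by 2.68 (SE 0.11, adjusted p = 6.51e-25) and in fibroblast-like nuclei by 1.43 (SE 0.14). Against the sum of all other named nuclei the first 2 were 3.25 and 2.82, and the fibroblast-like difference was 0.89, under the 2-fold limit. Pericyte-like and smooth muscle-like nuclei differed by 1.25 (interval 0.95 to 1.55, adjusted p = 1.10e-08 by edgeR). Notch3 was called lower in endothelial-like nuclei, at 20.9, 18.1 and 19.7 CPM (-2.25, SE 0.22), in cardiomyocyte-like nuclei at 8.79 ± 0.67 (SD, n = 3) and in mesothelial-like nuclei at 8.53 ± 3.42.

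The macrophage-like class was uneven for Notch3, with 187 CPM in pool 1 against 42.9 and 89.8 in pools 2 and 3. Jag1 in that class was likewise highest in pool 1 (184, 103 and 89.8), and Heyl was 62.9, 11.4 and 44.9. The summed level of the 7 smooth muscle markers in macrophage-like nuclei was 1305, 678 and 757 CPM, and that of the 7 pericyte markers 395, 152 and 141, with 0 and 1 markers at 0. The part of these markers in the pool 1 values was not tested. In the first form of the test no member was called in the macrophage-like class, and in the second Notch4 (-3.22, from 2 UMIs) and Hey2 (-1.50) were called lower.

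Notch4, a second endothelial receptor, was read at 47.7, 45.6 and 38.4 CPM in endothelial-like nuclei, from 650 UMIs. Pericyte-like nuclei came next with 4.51, 18.1 and 22.7, which rest on 1, 4 and 4 UMIs. No other class with Notch4 UMIs had a mean above the 4.37 of mesothelial-like nuclei. The endothelial-like difference was 4.19 against the sum of all other named nuclei (SE 0.16, adjusted p = 3.07e-10 by edgeR), 4.40 against the mean of the other classes, and 3.78 without the erythroid-like class. Against pericyte-like nuclei it was 1.63 (interval 0.73 to 2.52, adjusted p = 0.00647), and without pool 1 it was 1.07 with an adjusted p of 0.194. The pericyte-like call of 2.59 rested on 9 UMIs and was 0.08 against the sum of all other named nuclei.

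Among the ligands, Jag1 was highest in smooth muscle-like nuclei, at 484, 618 and 535 CPM. Pericyte-like nuclei followed with 352, 303 and 295, and endothelial-like nuclei with 275, 256 and 217, and the 3 classes did not overlap. The smooth muscle-like difference was 2.79 (SE 0.11, adjusted p = 2.44e-26 by edgeR) and 2.38 against the sum of all other named nuclei, and smooth muscle-like exceeded pericyte-like nuclei by 0.94 (interval 0.57 to 1.32). In endothelial-like nuclei Jag1 was higher by 1.39 (SE 0.12) against the mean of the other classes and by 0.62 against the sum of all other named nuclei, where the call was lost. In pericyte-like nuclei the 2 differences were 1.74 and 0.74, and the second was not called.

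Valve interstitial-like nuclei, which held the most Notch2, were among the lowest for Jag1, with 47.7, 34.6 and 43.7 CPM. Jag1 was called lower there (-1.46, SE 0.20, adjusted p = 5.76e-08 by edgeR) and in cardiomyocyte-like nuclei (-3.09, SE 0.26), which held 11.3 ± 3.86 (SD, n = 3). It was also called lower in mesothelial-like nuclei (-2.07, SE 0.25), which held 28.6 ± 17.3. Fibroblast-like nuclei held 132, 150.3 and 128, above every valve interstitial-like value.

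Jag2 was read at 24.8, 18.1 and 15 CPM in endothelial-like nuclei, from 300 UMIs. Cardiomyocyte-like nuclei followed with 8.90, 7.34 and 6.19, and lymphatic endothelial-like nuclei with 16.5, 5.77 and 0. The endothelial-like difference was 2.25 against the sum of all other named nuclei (SE 0.17, adjusted p = 2.00e-07 by edgeR), and 0.98 against cardiomyocyte-like nuclei (interval 0.53 to 1.43, adjusted p = 0.000234). Jag2 in cardiomyocyte-like nuclei was called against the mean of the other classes (2.06), but its difference from the sum of all other named nuclei was 0.28 (adjusted p = 0.193).

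Dll4, a Delta-like ligand of arterial and sprouting endothelium, was read at 23.3, 24.3 and 14.6 CPM in endothelial-like nuclei, from 315 UMIs. Lymphatic endothelial-like nuclei had 23.1, 14.4 and 7.01, from 7, 5 and 1 UMIs, and pericyte-like nuclei 4.51, 13.6 and 11.3, from 6 UMIs. Smooth muscle-like, valve interstitial-like and cardiomyocyte-like nuclei had means of 1.01, 1.03 and 0.45. The endothelial-like difference was 3.75 against the sum of all other named nuclei (SE 0.21, adjusted p = 1.03e-08 by edgeR). The difference from lymphatic endothelial-like nuclei was 0.48, with an interval from -0.51 to 1.47, so 13 lymphatic UMIs could not place that class above or below.

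Among the targets, Hey2 had high and overlapping levels in classes of very different kind. Endothelial-like nuclei held 142, 145 and 135 CPM, cardiomyocyte-like nuclei 128, 156 and 128, pericyte-like nuclei 185, 99.5 and 119, and smooth muscle-like nuclei 119, 107 and 124. The pools of the first 3 of these overlapped, as did those of the last pair. In the fibroblast-like (18.9 ± 4.89, SD, n = 3), valve interstitial-like (16.8 ± 3.55), mesothelial-like (16.6 ± 11) and lymphatic endothelial-like classes (13.9 ± 8.29) Hey2 was called lower, with differences of -1.47, -1.56, -1.84 and -1.87 from the mean of the other classes. Hey2 was higher in cardiomyocyte-like nuclei by 2.17 (SE 0.12, adjusted p = 1.35e-21 by edgeR) and by 1.07 against the sum of all other named nuclei, where the call held.

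The endothelial-like difference of Hey2 was 1.78 (SE 0.12) in the first form and 0.66 in the second, where it was no longer 2-fold. In smooth muscle-like and pericyte-like nuclei it was 1.65 and 1.69 in the first form, and 0.39 and 0.36 in the second. After edgeR's TMM scaling endothelial-like nuclei lay below cardiomyocyte-like nuclei by -0.36 (interval -0.58 to -0.14, adjusted p = 0.00439), although the mean levels of 140.3 and 137 CPM are in the other order. Without pool 2 that difference was -0.28 (adjusted p = 0.0653), and without pool as a block -0.37 (adjusted p = 0.0712).

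Heyl followed the mural classes, with 164, 154 and 150.3 CPM in smooth muscle-like nuclei and 135, 131 and 108 in pericyte-like nuclei. Fibroblast-like nuclei had 61.8, 74.7 and 66.1 and valve interstitial-like nuclei 49.1, 60.9 and 51.2. The smooth muscle-like and pericyte-like pools did not overlap, but their difference of 0.48 (interval 0.06 to 0.91) had an adjusted p of 0.150 by edgeR. The difference in smooth muscle-like nuclei was 2.43 (SE 0.11, adjusted p = 2.21e-23 by edgeR) and 2.79 against the sum of all other named nuclei, and in pericyte-like nuclei 1.89 and 1.38. Heyl was called lower in endothelial-like nuclei, at 15.1, 16.1 and 17.5 CPM (-1.39, SE 0.19).

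Hey1 was the sparsest target. Fibroblast-like nuclei held 10.9, 12.5 and 9.58 CPM from 49 UMIs, lymphatic endothelial-like nuclei 13.2, 11.5 and 7.01 from 9 UMIs, and endothelial-like nuclei 9.98, 9.29 and 6.94 from 132 UMIs. Valve interstitial-like nuclei had 7.01, 11.3 and 3.77 and smooth muscle-like nuclei 6.73, 8.25 and 6.66. All neighbours in this order overlapped. Hey1 was called higher in the fibroblast-like class in the first (2.10) and the second form of the test (1.05, SE 0.27, adjusted p = 0.00515 by edgeR). In the endothelial-like, smooth muscle-like and valve interstitial-like classes it was called in the first form (1.80, 1.59 and 1.51) and not in the second (0.92, 0.48 and 0.42). Cardiomyocyte-like nuclei held 12 Hey1 UMIs in all and a mean of 0.80.

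For the pairs of highest and next class, an adjusted p under 0.05 alone was reached in the direction tested by 8.14% of genes for endothelial-like over lymphatic endothelial-like, 8.45% for valve interstitial-like over fibroblast-like, 7.52% for pericyte-like over smooth muscle-like, 10.6% for endothelial-like over pericyte-like, 6.05% for smooth muscle-like over pericyte-like, 13.5% for fibroblast-like over lymphatic endothelial-like and 35.8% for endothelial-like over cardiomyocyte-like nuclei. For Hey2, which went the other way, it was 31.2%. The pairs were chosen from the levels.

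Counted by class, endothelial-like nuclei had 7 of 10 members called higher (Notch1, Notch4, Jag1, Jag2, Dll4, Hey1 and Hey2) and 2 lower (Notch3 and Heyl), where 14.2% of all genes were called higher and 3.77% lower. Against the sum of all other named nuclei, 4 of the 7 were called higher (Notch1, Notch4, Jag2 and Dll4) and the same 2 lower, with 10.1% and 16.7% of all genes. In the first form the median log2 difference over the 10 members was 1.79, and over all genes 0.26. Smooth muscle-like nuclei had 5 called higher (Notch3, Jag1, Hey1, Hey2 and Heyl) and 0 lower, with 14% of all genes higher and 3.58% lower, and a median of 0.96 against 0.27. Against the sum of all other named nuclei 3 were called higher (Notch3, Jag1 and Heyl) and 4 lower (Notch1, Notch4, Jag2 and Dll4), with 8.18% and 17.4% of all genes. Pericyte-like nuclei had 6 called higher (Notch1, Notch3, Notch4, Jag1, Hey2 and Heyl) and 0 lower, with 7.29% and 0.814% of all genes, and in the second form 2 higher (Notch3 and Heyl) and 0 lower, with 4.29% and 6.2%.

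Valve interstitial-like nuclei had 3 members called higher (Notch1, Notch2 and Hey1) and 2 lower (Jag1 and Hey2), with 12.1% of all genes higher and 3.23% lower. The median over the members was -0.15 and over all genes 0.24, and in the second form 1 was called higher (Notch2) and 5 lower (Notch4, Jag1, Jag2, Dll4 and Hey2), with 7.27% and 14.6% of all genes. Cardiomyocyte-like nuclei had 2 higher (Jag2 and Hey2) and 4 lower (Notch1, Notch3, Jag1 and Heyl), with 21.3% and 10.5% of all genes. In the second form Hey2 was the 1 called higher, and Notch4, Dll4 and Hey1 joined the lower ones, which were then 7 (17% and 24%). Mesothelial-like nuclei had 0 higher and 5 lower (Notch1, Notch3, Jag1, Hey2 and Heyl), with 25.3% and 6.61%, and in the second form 0 and 8, with Notch4, Jag2 and Hey1 added (18.1% and 19.7%). Fibroblast-like nuclei had 2 higher and 1 lower (11% and 2.51%), and in the second form 1 higher (Hey1) and 5 lower (Notch1, Notch4, Jag2, Dll4 and Hey2), with 6.84% and 12.9% of all genes. Lymphatic endothelial-like nuclei had 2 higher and 1 lower (9.94% and 3.45%), and in the second form 1 higher (Notch1) and 3 lower (Notch3, Notch4 and Hey2), with 6.09% and 10.8%. Macrophage-like (13.5% and 2.79%) and erythroid-like nuclei (1.66% and 4.63%) had 0 calls in the first form. Over all 10 classes 27 of 100 pairs of member and class were called higher and 15 lower, and against the sum of all other named nuclei 13 were called higher and 36 lower. The shares of all genes in that form not yet given were 9.24% higher and 12% lower for macrophage-like nuclei, which had 0 and 2 calls, and 0.58% and 0.08% for erythroid-like nuclei, which had 0 calls there too. Lower calls of Notch4, Jag2, Dll4 and Hey1 in the second form rest on 2 to 29 UMIs in the class.

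**Figure D2:**
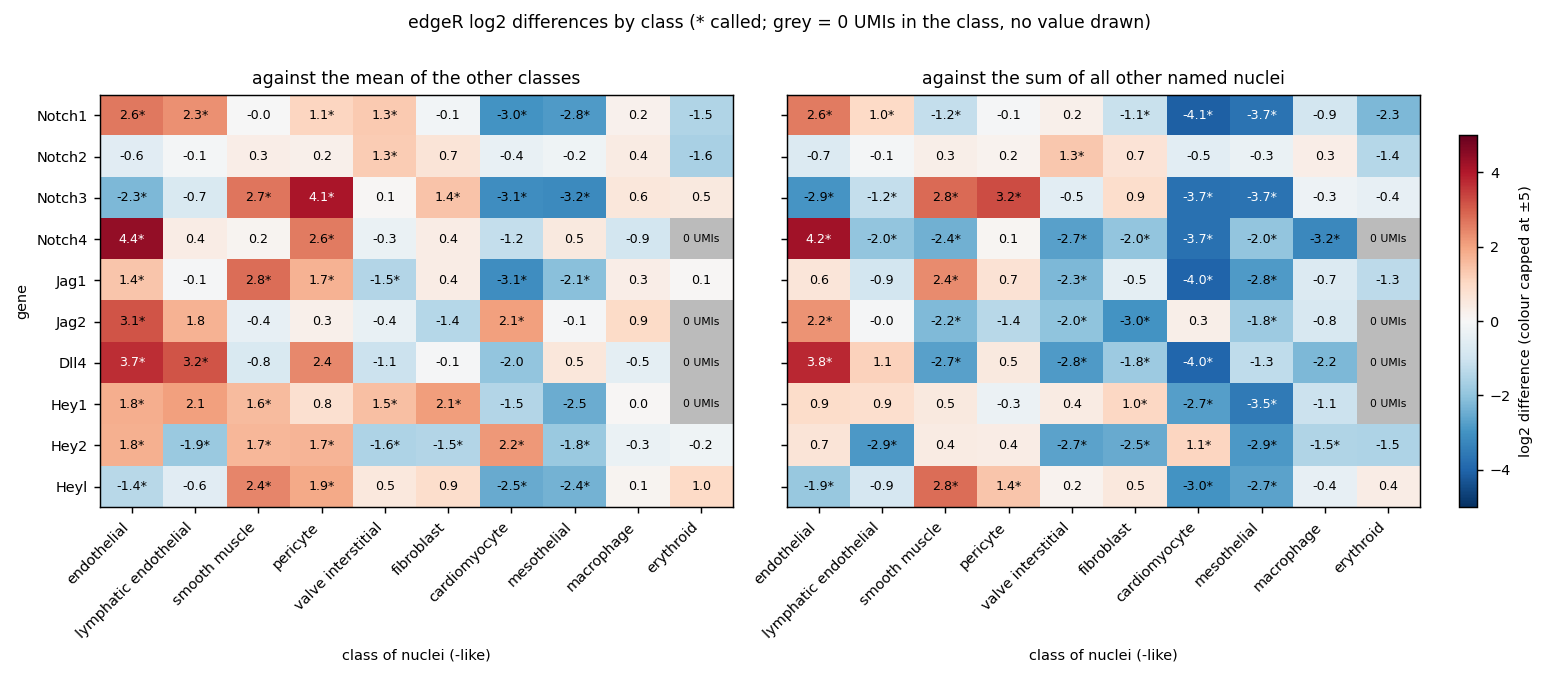
Fitted log2 difference of each member in each class, against the mean of the other classes (left) and against the sum of all other named nuclei (right). Asterisks mark calls, colours are capped at 5 in either direction, and grey cells had 0 UMIs. There are 27 higher calls on the left and 13 on the right, the endothelial-like column falling from 7 to 4.

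Shares of nuclei with at least 1 UMI were compared after each nucleus was thinned to 1000 UMIs. Notch3 was found in 69.6%, 58.5% and 63.4% of pericyte-like nuclei (Wilson 95% intervals from 43.4% to 80.9% over the 3 pools) and in 31.4% ± 2.85 of smooth muscle-like nuclei (SD, n = 3), against 0.52% of cardiomyocyte-like nuclei, which served as background. Before thinning these shares were 96.7%, 61.3% and 3.95%, at median depths of 4249, 3280 and 5443 UMIs per nucleus. Jag1 was found in 34.4%, 39.4% and 36.8% of smooth muscle-like nuclei, 68.3% on average before thinning, against 7.25% of macrophage-like nuclei, its background class, and 1.04% of cardiomyocyte-like nuclei. Notch1 was found in 23.8%, 23.5% and 21.8% of endothelial-like nuclei and 10.2% ± 2.67 of valve interstitial-like nuclei, against 0.65% in cardiomyocyte-like nuclei. For these 3 genes the class with the highest level also had the highest share.

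Notch2 was found in 23.6% ± 1.88 of valve interstitial-like nuclei, and its shares of 9.14% in endothelial-like and 8.97% in mesothelial-like nuclei lay near the 7.86% of the cardiomyocyte-like class. Endothelial-like nuclei showed Hey2 in 12.3% ± 0.55 (SD, n = 3), cardiomyocyte-like nuclei in 12% ± 0.48, and it was found in 9.71% ± 2.29 of smooth muscle-like nuclei. Its shares in valve interstitial-like (1.23%) and fibroblast-like nuclei (1.74%) lay below the 2.92% of macrophage-like nuclei, the class set as its background. That class was not the lowest for Hey2, since mesothelial-like (0.96%) and lymphatic endothelial-like nuclei (0.76%) had smaller shares. Whether the valve interstitial-like and fibroblast-like shares are background was not tested. Heyl was found in 16.2% ± 4.96 of pericyte-like and 13.9% ± 1.69 of smooth muscle-like nuclei, with overlapping pools and in the reverse of their order by level. Its shares were 6.37% ± 0.63 in fibroblast-like and 5.44% ± 1.55 in valve interstitial-like nuclei, against 0.57% in cardiomyocyte-like nuclei. The sparse members reached 4.69% (Notch4), 2.50% (Dll4) and 1.55% (Jag2) of endothelial-like nuclei, against 0.03%, 0.05% and 1.10% in cardiomyocyte-like nuclei. For Jag2 the cardiomyocyte-like share is thus close to the endothelial-like one, but that class also had the second highest mean level of Jag2. It is therefore not a floor for this gene. Smooth muscle-like (0.27%), fibroblast-like (0.33%) and valve interstitial-like nuclei (0.12%) had lower Jag2 shares. Intervals cover counting error only.

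**Figure D3:**
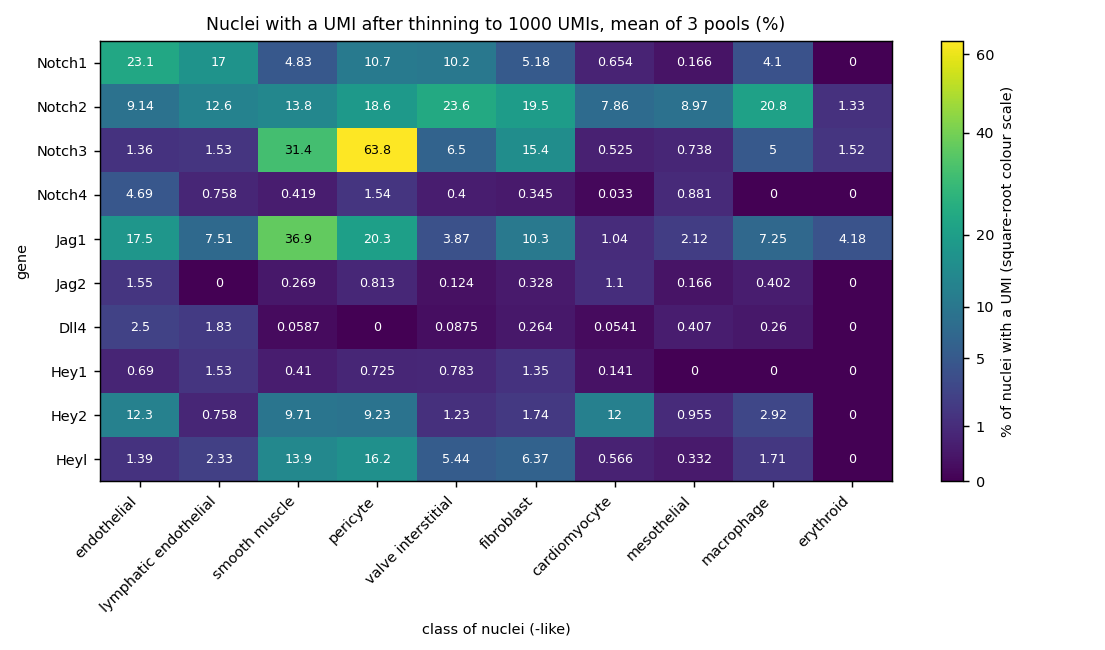
Percent of nuclei with at least 1 UMI of each member, by class, after thinning to 1000 UMIs (mean of 3 pools, square-root colour scale). Notch3 in pericyte-like nuclei (63.8%) and Jag1 in smooth muscle-like nuclei (36.9%) are the brightest cells, and Notch4, Jag2, Dll4 and Hey1 stay under a mean of 5% in every class.

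Endothelial-like nuclei divided into 7 clusters, and 6 of these had 20 or more nuclei in each pool. The clusters were built from the RNA of the same nuclei, so differences among them are given as descriptions, with no test. A small cluster led by Mannr, Ptchd1 and Sema3g, with 231 nuclei or 8.47% of the class, stood apart for the ligands. It held 958, 943 and 910 CPM of Jag1, where the next cluster, led by Cytl1, Gkn3 and Rtl4, held 363, 354 and 305. Its Jag2 level was 136, 102 and 75.8, its Dll4 level 97.2, 61.5 and 61.6, and its Hey1 level 51.9, 38.7 and 47.4. The next highest means were 48.4 for Jag2 and 6.78 for Hey1, in a cluster led by Pcdh17, and 18.0 for Dll4, in one led by Grid1. In no pool did another of the 6 clusters reach the Mannr cluster for these 4 genes.

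Notch4 (103 ± 15.6, SD, n = 3) and Hey2 (258 ± 43.1) were also highest in the Mannr cluster, while Notch1 (240 ± 7.78) was near the class level and Notch2 (40.5 ± 12.3) was among the lowest. The cluster held 8.64% of all UMIs of the class, beside 46.8% ± 8.72 of the Jag2 UMIs, 45.7% ± 6.04 of Hey1, 32.6% ± 3.90 of Jag1, 30.8% ± 4.89 of Dll4 and 20.2% ± 3.12 of Notch4. For Notch1 the share was 7.75% ± 1.06. Gja5, the connexin of arterial endothelium, was among the 10 leading genes of the cluster at 572 ± 118 CPM, and Sox17, an arterial transcription factor, stood at 246 ± 27.1 against means of at most 83.2 in the others. Efnb2 (911) and Gja4 (277), 2 other arterial genes, were as high in a cluster led by Dlgap2 and Cntnap5a (1070 and 280.0), which had little Jag1 (61.9 ± 17.6) and Hey2 (36.9 ± 9.09). Of the remaining genes of the arterial list, Mecom (7031 ± 895) was highest in the Mannr cluster, as was Cxcr4 by mean (10.4, from 14 UMIs). Unc5b went the other way and was lowest there, at 66.7 ± 17.7 CPM against means of 85.2 to 131 in the others.

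Without the Mannr cluster, endothelial-like nuclei held 184 ± 27.6 CPM of Jag1 (SD, n = 3) in place of 249, 11.2 ± 3.19 of Jag2 in place of 19.3 and 5.27 ± 1.48 of Hey1 in place of 8.74. Dll4 was 15.8 ± 4.78 and Notch4 38.2 ± 3.58 without it. Notch1 (270.4 ± 21.1) and Hey2 (129 ± 8.0) moved less.

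The cluster led by Kcnc2, Fam155a and Wnt9b, which carried all 5 endocardial markers (Nfatc1, Npr3, Plvap, Adgrg6 and Tmem108), had the highest Notch1, with 421, 346 and 327 CPM. Its lowest pool lay above every pool of the other 5 clusters. Hey2 was 200, 171 and 179 there, Jag1 185 ± 39.8, and Notch4 (26.2 ± 2.41), Jag2 (8.58 ± 0.28) and Dll4 (12.4 ± 1.55) were low. A cluster led by Pcdh17, Aplnr and Fabp4 had the lowest Notch1 (148 ± 35.1) and Hey2 (26.6 ± 13.5) and the second highest Jag2 (48.4 ± 16.1).

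**Figure D4:**
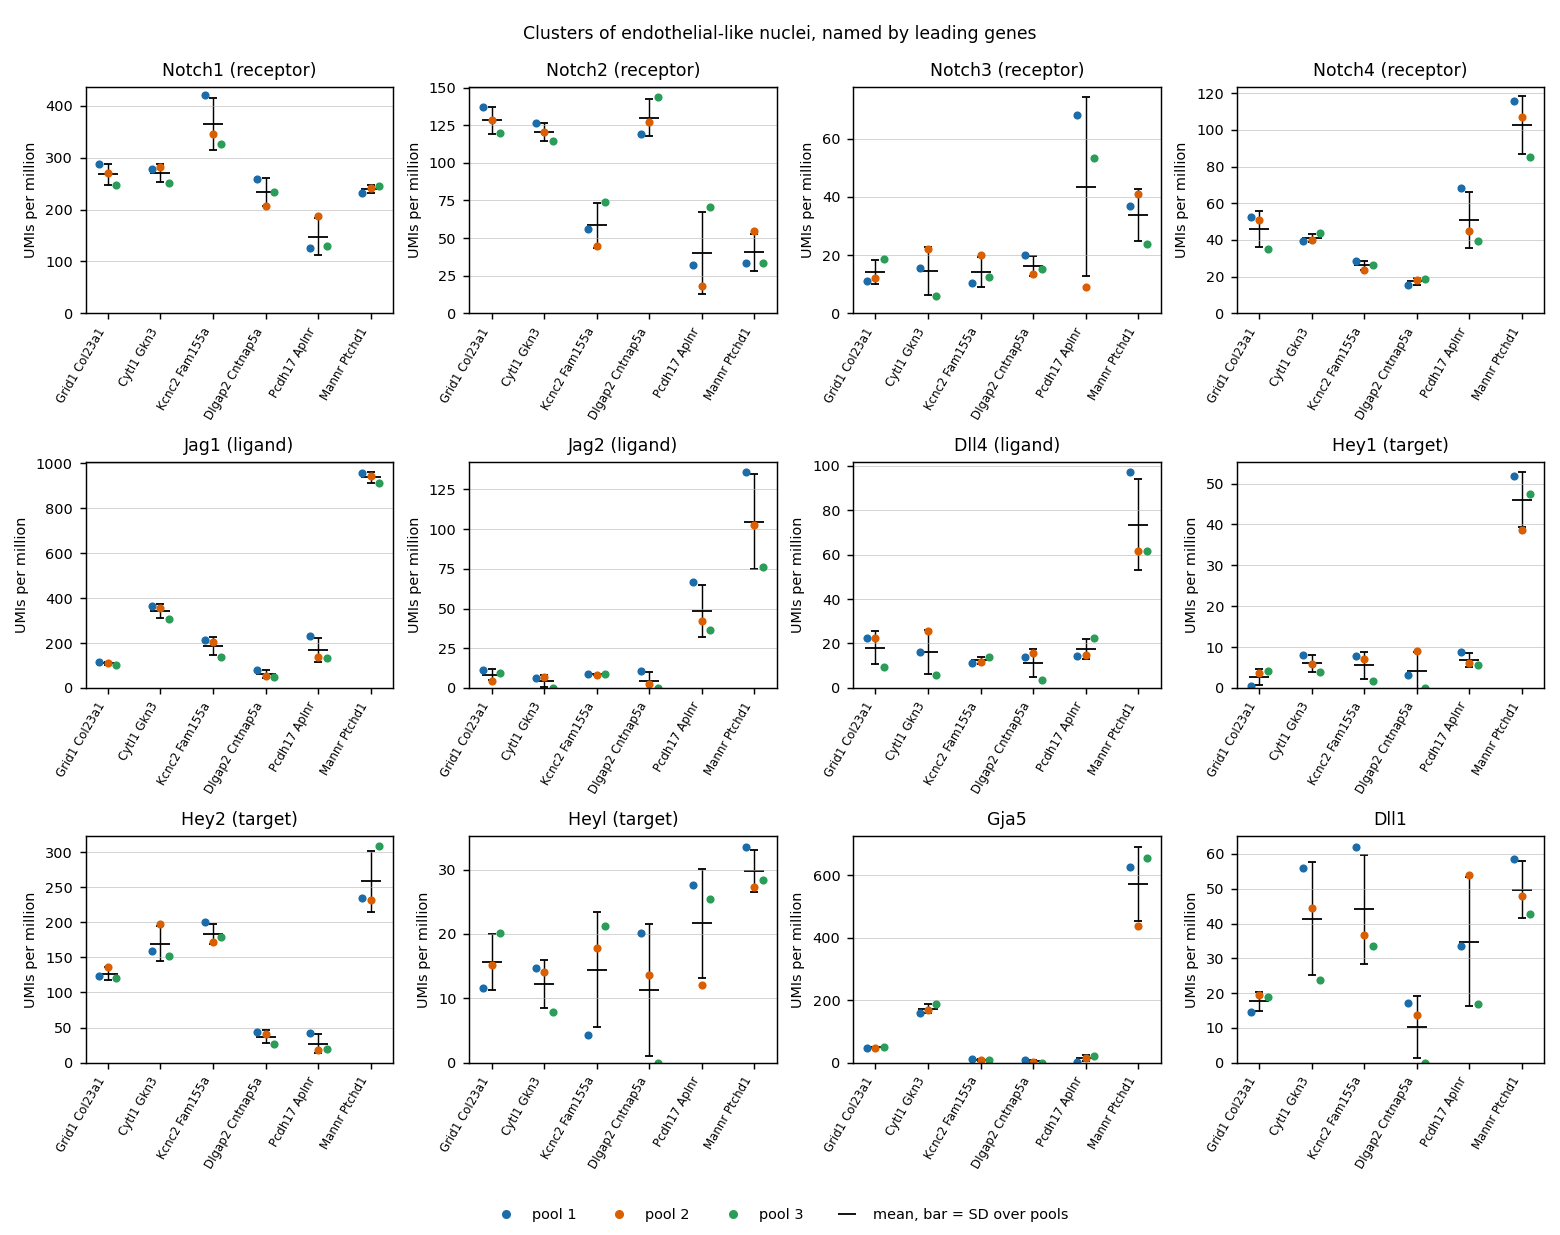
Levels of the members, of Gja5 and of Dll1 in 6 clusters of endothelial-like nuclei, in CPM on linear axes from 0. Points are pools, the dash and bar their mean and SD. The Mannr Ptchd1 cluster is the highest for Jag1 (937), Jag2 (105), Dll4 (73.4) and Hey1 (46.0), and the Kcnc2 Fam155a cluster for Notch1 (365).

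The 3 smooth muscle-like clusters shared Notch3, Jag1 and Heyl in different amounts. The cluster led by Clca3a2, Pi15 and Syt1 had the highest Jag1 (570, 769 and 668 CPM), Hey2 (159, 147 and 176), Hey1 (10.8, 14.8 and 11.3) and, by mean, Heyl (204, 171 and 173). The cluster led by Mylk4, Ptprz1 and Col19a1 had the highest Notch3, with 453, 496 and 406 against 372, 353 and 329. The remaining cluster, led by Itgbl1, Xkr4 and Sntg2, was lowest for Notch3 (278 ± 45.8, SD, n = 3), Jag1 (403 ± 10.1) and Hey2 (44.8 ± 19.5). Notch3 thus ranked the first 2 clusters in the opposite order to Hey2 and Heyl, and Hey2 differed without overlap among all 3, while Heyl in the Itgbl1 cluster (202, 111 and 158) overlapped both others.

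In the valve interstitial-like class the larger cluster, led by Rmst and Pcdh15, had 142, 115 and 144 CPM of Notch1 and 332, 371 and 341 of Notch2. The smaller one, led by Abi3bp and Ctnna2, had 63.3, 101 and 59.8 of Notch1 and 205, 197 and 245 of Notch2. For Notch3 and Jag1 the order was the other way, with means of 70.3 and 31.3 in the Rmst cluster and 112 and 63.8 in the Abi3bp cluster. The clusters overlapped in pools for Jag1 and did not for Notch1, Notch2 or Notch3.

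Fibroblast-like nuclei of the cluster led by Tmeff2, Fgf10 and Clec3b held 198, 333 and 190.0 CPM of Jag1, and those of the cluster led by Abca8a held 94.2, 84.7 and 109. Hey1 was higher in the latter by mean (12.9 ± 1.89 against 6.79 ± 5.0, SD, n = 3), with overlapping pools and 49 UMIs in all. In cardiomyocyte-like nuclei Hey2 was 179, 201 and 177 in the largest cluster, led by D830005E20Rik and Fgf13, against 51.1, 52.3 and 36.3 in one led by Ryr3 and Cpne5 and 12.4, 19.7 and 19.1 in one led by Erc2 and Lrrc4c. The largest cluster held 1829 of the 1952 Hey2 UMIs of cardiomyocyte-like nuclei.

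**Figure D5:**
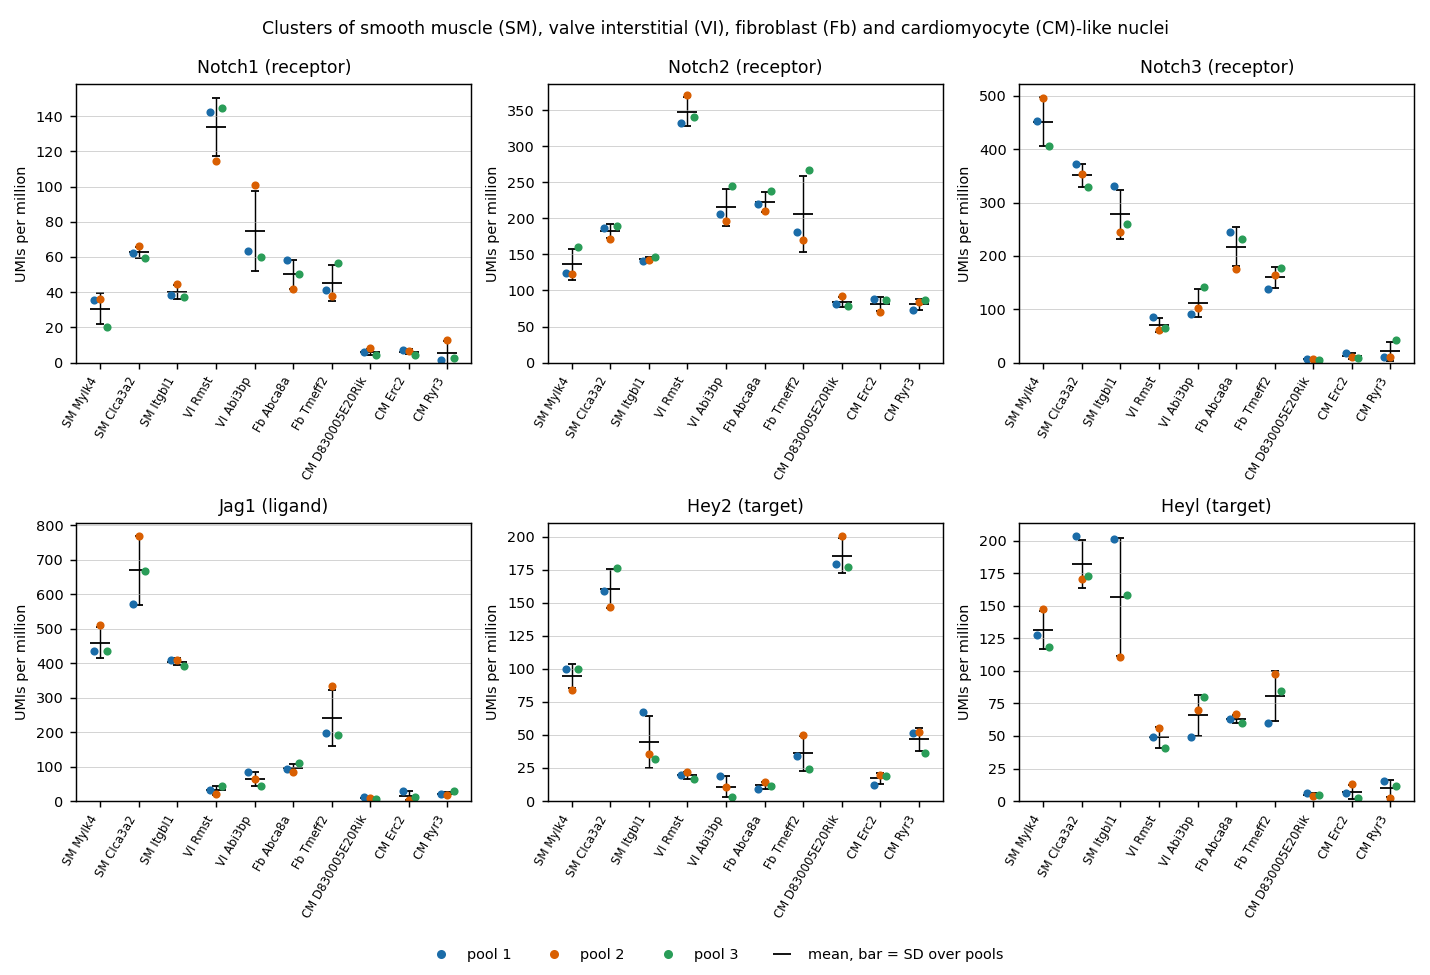
Levels of 6 members in clusters of smooth muscle-like (SM), valve interstitial-like (VI), fibroblast-like (Fb) and cardiomyocyte-like (CM) nuclei, in CPM on linear axes from 0, with pools as points and mean and SD as dash and bar. Hey2 spans 17.0 to 186 among cardiomyocyte-like clusters, and Jag1 is highest in the Clca3a2 cluster (669).

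The 3 clusters without a name also held members. A cluster of 735 nuclei led by Mb and Fabp3 met the smooth muscle and the cardiomyocyte markers equally often (4 of 7 each) and was left unnamed, with 161 ± 53.0 CPM of Notch3 and 205 ± 56.7 of Jag1 (SD, n = 3). One of 559 nuclei led by Neil3, Diaph3 and other genes of dividing cells, had 268 ± 74.9 and 220 ± 55.4. One of 242 nuclei, 178 of them from pool 3 and with a median of 13063 UMIs, was led by Kcnh7 and Mylk4 and had 211 ± 81.1 and 294 ± 57.4. None of these nuclei entered the tests.

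Receptor and target UMIs in the same thinned nucleus were counted in 7 pairs. In smooth muscle-like nuclei Heyl was found in 15.8%, 17.8% and 13.5% of nuclei with a Notch3 UMI and in 13.1%, 14.3% and 11.6% of those without, higher in 3 of 3 pools. For each of the other 6 pairs (Notch1 and Notch4 with Hey1 and Hey2 in endothelial-like nuclei, and Notch3 with Hey1 and Hey2 in smooth muscle-like nuclei) the share was higher in 1 of 3 pools. Hey2 was in 13.8% ± 4.28 of endothelial-like nuclei with a Notch1 UMI and in 12% ± 0.73 of those without (SD, n = 3). These counts were not tested, and between 1 and 138 nuclei per pair held both genes.

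Of 46 other genes of the pathway, 41 passed the filter on low counts. As 9 of the 41 had 0 UMIs in the erythroid-like class (among them Dll1, Mfng, Adam17, Poglut1 and Numbl), counts are given for both forms of the test, and log2 values are of the first form where the second is not named. In endothelial-like nuclei 8 of 41 were called higher and 1 lower, beside the 14.2% and 3.77% of all genes. They included the ligand Dll1, at 38.7, 32.2 and 23.4 CPM there against at most 3.40 ± 3.00 in the classes outside the endothelial-like and lymphatic ones (4.30, SE 0.28), Mfng, a fringe enzyme that adds sugars to the receptors, at 27.0, 24.7 and 23.4 (5.04, SE 0.33), and Efnb2, an arterial target, at 736, 746 and 695 (2.89, SE 0.08). Numb, a receptor inhibitor, the protease Adam17, Lfng, Poglut1 and the feedback gene Nrarp were higher by 1.01 to 1.27. Dlk1, a ligand-like protein without the usual binding domain, was the 1 called lower (-1.70, SE 0.42). In the second form 7 were called higher and 2 lower, beside 10.1% and 16.7% of all genes. Dll1 (4.12), Mfng (4.51), Efnb2 (2.91), Nrarp (1.61) and Lfng (1.20) were called in both forms, while Numb (0.98), Poglut1 (0.41) and Adam17 (0.37) were not called in the second. Poglut1 averaged 25.4 CPM in endothelial-like and 32.6 in valve interstitial-like nuclei, and Adam17 78.3 against 182 in macrophage-like nuclei. All adjusted p-values behind these calls are edgeR's, over all genes tested.

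In lymphatic endothelial-like nuclei 9 of 41 were called higher and 0 lower, beside 9.94% and 3.45% of all genes, and in the second form 5 and 2, beside 6.09% and 10.8%. The deltex gene Dtx1, a regulator of the receptors, stood at 260.4, 254 and 245 CPM there and at a mean of 7.78 or less in the other classes (7.83, SE 0.26, and 7.25 in the second form). Lfng, another fringe enzyme, averaged 67.2 ± 19.3 in that class (SD, n = 3). Smooth muscle-like nuclei had 3 higher (Maml2, a coactivator of Rbpj, Numbl and Efnb2) and 3 lower (Dlk1, Lfng and the protease Adam10), beside 14% and 3.58% of all genes. In the second form 2 were higher (Maml2 and Dtx3) and 7 lower, beside 8.18% and 17.4%, and Numbl (0.86) and Efnb2 (-0.08) were not called. In pericyte-like nuclei 5 were higher and 0 lower, beside 7.29% and 0.814% of all genes, and in the second form 3 and 1, beside 4.29% and 6.2%. Nrarp, at 18.1, 45.2 and 45.4 CPM, was called in both (2.95, SE 0.46, and 2.60).

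Valve interstitial-like nuclei had 2 called higher (Poglut1 and Numbl) and 2 lower (Dtx3l and Efnb2), beside 12.1% and 3.23% of all genes. In the second form 1 was higher (Numbl, 1.05) and 8 lower, beside 7.27% and 14.6%, and Poglut1 (0.74) was not called. Numbl averaged 43.7 CPM there and 45.6 in fibroblast-like nuclei. Fibroblast-like nuclei had 3 higher and 2 lower, beside 11% and 2.51%, and in the second form 4 and 4, beside 6.84% and 12.9%. Dlk1 stood at 372, 443 and 272 CPM in fibroblast-like nuclei and 380, 507 and 206 in mesothelial-like nuclei, against 26.5 ± 6.62 in valve interstitial-like nuclei (SD, n = 3). Macrophage-like nuclei had 7 higher and 0 lower, beside 13.5% and 2.79% of all genes, and in the second form 6 and 2, beside 9.24% and 12%. Rbpj, at 495, 527 and 776 CPM, was called in both (1.87, SE 0.12, and 1.94). Mesothelial-like nuclei had 10 higher and 3 lower, beside 25.3% and 6.61% of all genes, and in the second form 9 and 8, beside 18.1% and 19.7%. Cardiomyocyte-like nuclei had 1 higher (Fbxw7) and 8 lower, with the targets Hes1, Nrarp and Efnb2 among the 8, beside 21.3% and 10.5%, and in the second form 1 and 14, beside 17% and 24%. Hes1, a Notch target in many tissues, was called in no other class in either form and lay between 26.3 and 63.6 CPM in the other 8 classes apart from the erythroid-like one (12.4).

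The genes most like each member over the 30 libraries, by Pearson's r of log2(CPM + 1), are given as a description, since classes of a pool come from 1 library. They were Adgre5, Fli1 and Adcy4 for Notch1 (0.92 for each), Smc5, Eps15 and Usp48 for Notch2 (0.96 to 0.97), Gpc6, Ppp1r14a and Gm17501 for Notch3 (0.94 to 0.96) and Fam13c, Fblim1 and Stx1a for Jag1 (0.90 to 0.92). Dll4 was most like Gata2 (0.92), Gimap1 and Bcl6b, and Heyl most like Gpc6 (0.96), Adamts12 and Galnt16, so that Gpc6 led the lists of Notch3 and of Heyl. For Hey2 the list was LOC118567721 (0.93), 8030431J09Rik and Prdm16. The closest gene reached 0.83 for Notch4 (Plek2), 0.80 for Jag2 (Hsf3) and 0.89 for Hey1 (Gm32013).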

How the data were processed

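The authors deposited filtered count matrices, whole-number UMI counts per gene and nucleus that were not normalized, for 3 pools of postnatal day 1 tissue (49918251, 25341316 and 21254247 UMIs). Cell Ranger 7.1.0 made them, per the file headers. Versions 7.0.1 and 7.1.0 and the build GRCm39 are named in the submitters' processing notes, and the gene annotation is not given in the sources used here. The tables use symbols as identifiers.

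After the limits on UMIs and mitochondrial share, Scrublet scores were computed in each pool. The automatic threshold marked between 0 and 2 nuclei per pool and had not worked, so the top scores at 0.8% per 1000 deposited nuclei were removed. Nuclei were clustered with scanpy 1.11.5 and leidenalg 0.10.2 (2000 variable genes, 30 components, 15 neighbours, resolution 1), leaving out the members, the pathway and arterial lists, mitochondrial and sex genes, EGFP and Scx. A cluster took the name with the highest share of markers, at least 3, each in at least 10% of its nuclei and 2-fold higher than in the rest (5 CPM added). Equal shares left a cluster unnamed, a rule added after the clusters were seen, which concerned the 735 nuclei led by Mb. Clusters of the endothelial and the endocardial list were joined as endothelial-like.

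UMI counts were summed by pool and class and tested with edgeR 4.0.16 in R 4.3.3 (quasi-likelihood, TMM scaling, filterByExpr, pool as a block, Benjamini-Hochberg adjustment). Samples with the same replicate number pair, since each pool was 1 library and gave all its classes. DESeq2 1.42.0 was an alternative. Shares used nuclei thinned to 1000 UMIs with Wilson 95% intervals. On simulated data the test recovered 92%, 91% and 85% of genes changed 4-fold and 79%, 77% and 71% of those changed 2-fold (endothelial-like over 12739 genes, smooth muscle-like over 12823, valve interstitial-like over 12722). Recovery there was counted by an adjusted p under 0.05 alone, without the 2-fold limit that a call also needs. Median estimates for the 2-fold genes were 0.981, 0.999 and 0.992 log2, close to that limit, so their shares recovered do not describe calls. In the simulation the classes did not differ in any other gene. All 10 members passed the filter on low counts. The named genes are the members, the pathway and arterial lists, the leading genes of clusters and the 3 genes most like each member. Members and lists were chosen with earlier results of these data known.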

Additional observations from a re-analysis of the deposited data

How the results depend on the processing

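The choice of comparison mattered most. Against the sum of all other named nuclei, members were called higher 13 times over all classes (27 in the first form), 4 times in endothelial-like nuclei (7), 3 times in smooth muscle-like nuclei (5) and once in valve interstitial-like nuclei, 1 member in place of 3. In that form higher calls also fell in pericyte-like (6 to 2) and, from 2 to 1 each, in cardiomyocyte-like, fibroblast-like and lymphatic endothelial-like nuclei, and lower calls over all classes rose from 15 to 36. Of the other pathway genes, higher calls over all classes went from 48 to 38 (34 in both forms) and lower calls from 21 to 48 (19 in both). Under the other alternatives, the higher calls over all classes and in endothelial-like, smooth muscle-like and valve interstitial-like nuclei stayed within 1.5 times. The other counts were not recomputed there. Leaving out 1 pool gave 24 to 26 calls over all classes, 7 in endothelial-like, 4 to 5 in smooth muscle-like and 2 to 3 in valve interstitial-like nuclei. DESeq2 gave 24 over all classes, and an adjusted p alone 33. The classes left out (erythroid-like, 24, and lymphatic endothelial-like, 25) were alternatives chosen after the data were seen.

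Without the replicate block the calls over all classes numbered 26, and the Hey2 difference between endothelial-like and cardiomyocyte-like nuclei was -0.37 and no longer past the threshold (edgeR adjusted p = 0.0712). The block changed no other call of a pair.

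Leaving out 1 pool moved the pair differences between these log2 values: Notch1 0.21 to 0.67 (past the threshold without replicate 2), Notch4 1.07 to 2.08 (lost without replicate 1), Hey1 -0.049 to 0.27 (the sign turned without replicate 2, at -0.036, and without replicate 3) and Hey2 -0.45 to -0.28 (lost without replicate 2). The cause was not tested.

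Without thinning, shares were 63.5% (Notch1, endothelial-like), 59.3% (Notch2, valve interstitial-like), 96.7% (Notch3, pericyte-like), 18.0% (Notch4, endothelial-like), 68.3% (Jag1, smooth muscle-like), 7.27% (Jag2, endothelial-like), 9.33% (Dll4, endothelial-like), 4.16% (Hey1, fibroblast-like), 37.1% (Hey2, endothelial-like) and 34.1% (Heyl, smooth muscle-like), since deeper nuclei are more often seen to hold a UMI. With doublets kept they were 58.2% (Notch3), 4.19% (Notch4) and 0.833% (Hey1), and the cause was not tested. Depth limits Notch4, Jag2, Dll4 and Hey1 most, with 829, 575, 421 and 429 UMIs in all analysed nuclei.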
